A study of Mus musculus with 9 samples.

Results

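A set of 10 genes of fatty acid handling was followed by RNA-seq in mouse bone marrow-derived macrophages (BMDMs) that were resting, inflammatory, or inflammatory and irradiated with light. They were Lpl (ENSMUSG00000015568), Fabp4 (ENSMUSG00000062515), Fabp5 (ENSMUSG00000027533), Acsl1 (ENSMUSG00000018796), Plin2 (ENSMUSG00000028494), Hilpda (ENSMUSG00000043421), Pnpla2 (ENSMUSG00000025509), Fasn (ENSMUSG00000025153), Cpt1a (ENSMUSG00000024900) and Pparg (ENSMUSG00000000440). These 10 of the 55655 rows were taken by their gene symbols and their roles, and each symbol matched a single row. All cells came from the femur and tibia marrow of wild type C57BL/6 mice aged 6 to 8 weeks and were grown for 7 days with M-CSF at 10 ng/mL, the growth factor that matures marrow precursors into macrophages. M0 macrophages were the resting cells and received no light. M1 macrophages were polarized with LPS, the bacterial lipopolysaccharide, at 100 ng/mL and with the cytokine IFN-γ (interferon-γ) at 20 ng/mL, and stood in the dark box without light. The M1 + PBM group received the same stimuli together with photobiomodulation (PBM), near-infrared laser light of 6 mW/cm2 for 7 minutes, repeated at 12-hour intervals, and RNA of these last groups was taken 12 hours after PBM. Each group had 3 libraries. The study describes its RNA-seq experiment as repeated 3 times independently, while the labels do not say whether the replicates came from separate mice or cultures. The p-values below therefore measure the spread between these libraries, which may be technical.

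Macrophages take up fatty acids that lipoprotein lipase frees from circulating fat, carry them on small binding proteins, and activate them to acyl-CoA before they are used. Activated fatty acids are either stored as triglyceride in lipid droplets, whose coat and lipases govern their release, or moved into mitochondria for oxidation. Stimulation by LPS and IFN-γ is known to shift macrophages towards glycolysis and lipid storage, while the nuclear receptor PPARγ promotes fatty acid uptake and oxidation in resting and alternatively activated macrophages.

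Values are FPKM, fragments scaled to transcript length and library depth, as the authors deposited them, so levels of different genes can be set side by side per transcript length. Steps in the low values put the depth at about 30780000 to 41930000 fragments a library. The summed FPKM of 8 macrophage markers lay between 6798 and 10340 in M0, 5499 and 8469 in M1, and 5637 and 7287 in M1 + PBM. Lyz2 made up most of these sums, with means of 6918, 4681 and 4237. The markers did not move together. The means of Adgre1 and Fcgr1 were 312 and 36.0 in M0 and higher in M1, at 656 and 386. Those of Cd68 and Csf1r were 799 and 323 in M0 and lower in M1, at 501 and 238. The 4 M1 markers Nos2, Il6, Il1b and Cd86 summed to 1.04 to 29.1 in M0, 1150 to 1216 in M1 and 394 to 735 in M1 + PBM. Adipocyte markers, which matter here because adipocytes use most of these genes, summed to at most 1.42 in M0, 0.126 in M1 and 0.0616 in M1 + PBM, with leptin listed at 0 in every library. Neutrophil markers summed to 1.44 to 2.39 in M0, 8.94 to 28.1 in M1 and 6.44 to 15.05 in M1 + PBM. Most of these sums was S100a8, while S100a9 and Ly6g were listed at 0 in every library. Other lists were low, with summed FPKM over all groups of 0.316 to 0.877 for dendritic, 0.0797 to 0.535 for lymphoid and 0.472 to 0.977 for erythroid markers. A pair of libraries stood apart. M0 replicate 3 had a stromal marker sum of 181, against 5.28 to 6.49 in the other M0 libraries, an Adipoq level of 1.32, where the other M0 libraries were listed at 0, and an Il1b level of 25.1, against 0.244 and 0.285. M1 replicate 2 had a liver marker sum of 18.7, against 0.757 to 3.61 in the other 8 libraries, and albumin at 9.01, where the others were listed at 0. Outside M0 replicate 3, stromal sums lay between 3.32 and 25.9. In bulk RNA, fewer cells of a type and less RNA per cell cannot be told apart.

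The sequences before the transcription starts of the genes whose levels the results turn on are shown first. RefSeq windows on GRCm38.p6, from 250 bases before to 50 bases after a start, were found for 7 of the 10 genes, in 11 windows, and for Lpl, Fabp4 and Fabp5 none was found. The lines show the second of 2 windows of Hilpda, the gene with the largest difference under PBM, of Plin2, which coats the same droplets, of both starts of Acsl1, the gene far higher in M1 than in M0, and of Fasn, which was lower in M1. Capitals mark ACGTG and GCGTG, the core letters that hypoxia-inducible factors bind, and TCACNCCAC, a form of the sterol regulatory element, each searched on both strands, so that their reverse complements stand in capitals too.
Hilpda, second start, chr6:29272376-29272675, plus strand: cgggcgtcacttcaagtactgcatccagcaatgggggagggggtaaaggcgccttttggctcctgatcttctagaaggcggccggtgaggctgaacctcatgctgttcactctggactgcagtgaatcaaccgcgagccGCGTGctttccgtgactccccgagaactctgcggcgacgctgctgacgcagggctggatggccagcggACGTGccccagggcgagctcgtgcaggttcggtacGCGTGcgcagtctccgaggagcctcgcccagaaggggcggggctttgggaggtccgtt
Plin2, chr4:86670010-86670309, minus strand: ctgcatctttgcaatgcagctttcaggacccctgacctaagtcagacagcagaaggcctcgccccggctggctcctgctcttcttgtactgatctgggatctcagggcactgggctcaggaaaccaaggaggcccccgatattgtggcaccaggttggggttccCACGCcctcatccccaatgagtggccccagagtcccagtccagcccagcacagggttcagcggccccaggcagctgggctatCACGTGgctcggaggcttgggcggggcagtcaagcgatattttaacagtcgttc
Acsl1, first start, chr8:46470787-46471086, plus strand: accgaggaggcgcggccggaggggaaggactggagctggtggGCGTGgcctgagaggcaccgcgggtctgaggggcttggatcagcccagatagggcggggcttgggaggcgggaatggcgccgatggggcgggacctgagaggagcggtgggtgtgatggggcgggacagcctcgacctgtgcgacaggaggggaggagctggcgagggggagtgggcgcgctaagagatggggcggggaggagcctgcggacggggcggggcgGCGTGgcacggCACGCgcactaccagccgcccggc
Acsl1, second start, chr8:46490716-46491015, plus strand: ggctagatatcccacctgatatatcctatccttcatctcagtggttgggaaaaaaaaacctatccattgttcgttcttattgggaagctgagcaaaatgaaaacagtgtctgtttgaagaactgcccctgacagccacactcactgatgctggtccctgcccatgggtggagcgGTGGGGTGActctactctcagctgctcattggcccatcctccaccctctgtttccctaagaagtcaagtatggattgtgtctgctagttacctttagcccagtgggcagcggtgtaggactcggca
Fasn, chr11:120824498-120824797, minus strand: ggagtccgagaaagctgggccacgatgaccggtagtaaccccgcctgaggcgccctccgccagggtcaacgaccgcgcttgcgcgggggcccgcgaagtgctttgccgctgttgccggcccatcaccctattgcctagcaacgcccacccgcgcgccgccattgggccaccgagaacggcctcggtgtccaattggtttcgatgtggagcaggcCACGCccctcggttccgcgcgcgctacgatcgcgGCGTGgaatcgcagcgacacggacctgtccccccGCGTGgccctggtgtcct

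The window shown for Hilpda held 1 ACGTG and 2 GCGTG, which began 111, 43 and 8 bases before the start. The window of the other Hilpda start, chr6:29272238-29272537, overlaps with it and held fewer, with 1 GCGTG, 27 bases after the start, and no ACGTG. This GCGTG is the same one that began 111 bases before the second start. The 2 ACGTG of Plin2 were the overlapping strands of a single palindrome that began 4 bases before the start, and a GCGTG lay 86 bases before it. Fasn and the first start of Acsl1 each held 3 GCGTG and no ACGTG, and the second start of Acsl1 held 1 TCACNCCAC and neither core. With 2 GCGTG in the first of the 3 Pparg windows, 5 of the 7 genes had ACGTG or GCGTG in some window, and 6 of the 11 windows did. Such short letters are common, since 19.6% of the 32851 RefSeq windows of the same length held ACGTG, 32.4% held GCGTG and 43.8% held either. TCACNCCAC stood in 1.24% of windows. The full direct repeat of the PPAR response element was in 0.0396% of windows and in none of these 11. A match of letters is a description of the sequence and not a binding site.

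The first comparison set M1 beside M0 to describe where these genes stood after LPS and IFN-γ. Pparg, Fasn, Lpl, Fabp4 and Fabp5 were lower in every M1 library than in every M0 library, Acsl1 was higher in every one, and the ranges of Plin2, Hilpda, Pnpla2 and Cpt1a overlapped. M0 was deposited in a table of its own, so the differences are given with no test. The 6 genes without overlap are to be read against all genes, since 66.3% of the 13915 expressed rows (1 FPKM or more in 3 or more of the 9 libraries) did not overlap between M1 and M0, 50.6% lower and 15.6% higher. The median difference, M1 minus M0 on the log2(FPKM + 1) scale, was -0.71 over the 10 genes and -0.34 over all rows. Median-of-ratios scaling and quantile normalization, which centre the libraries on each other by construction, put the shift of all rows at 0.04 and -0.06, so that a shift of scale and a broad change of expression cannot be told apart. The M1 minus M0 difference of each of the 10 genes is therefore also given relative to all rows, with the median of -0.34 taken off. This median depends on the pseudocount and was -0.44 with 0.1 in place of 1, so the relative values are approximate. With median-of-ratios scaling the split of all rows without overlap turned from 50.6% lower and 15.6% higher to 25.3% lower and 31.6% higher. Of the 10 genes, 4 were then lower and 2 higher. Quantile normalization gave 31.1% of all rows lower and 25.0% higher, with 5 of the 10 genes lower and 1 higher. The scalings did not move single genes alike.

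**Figure D1:**
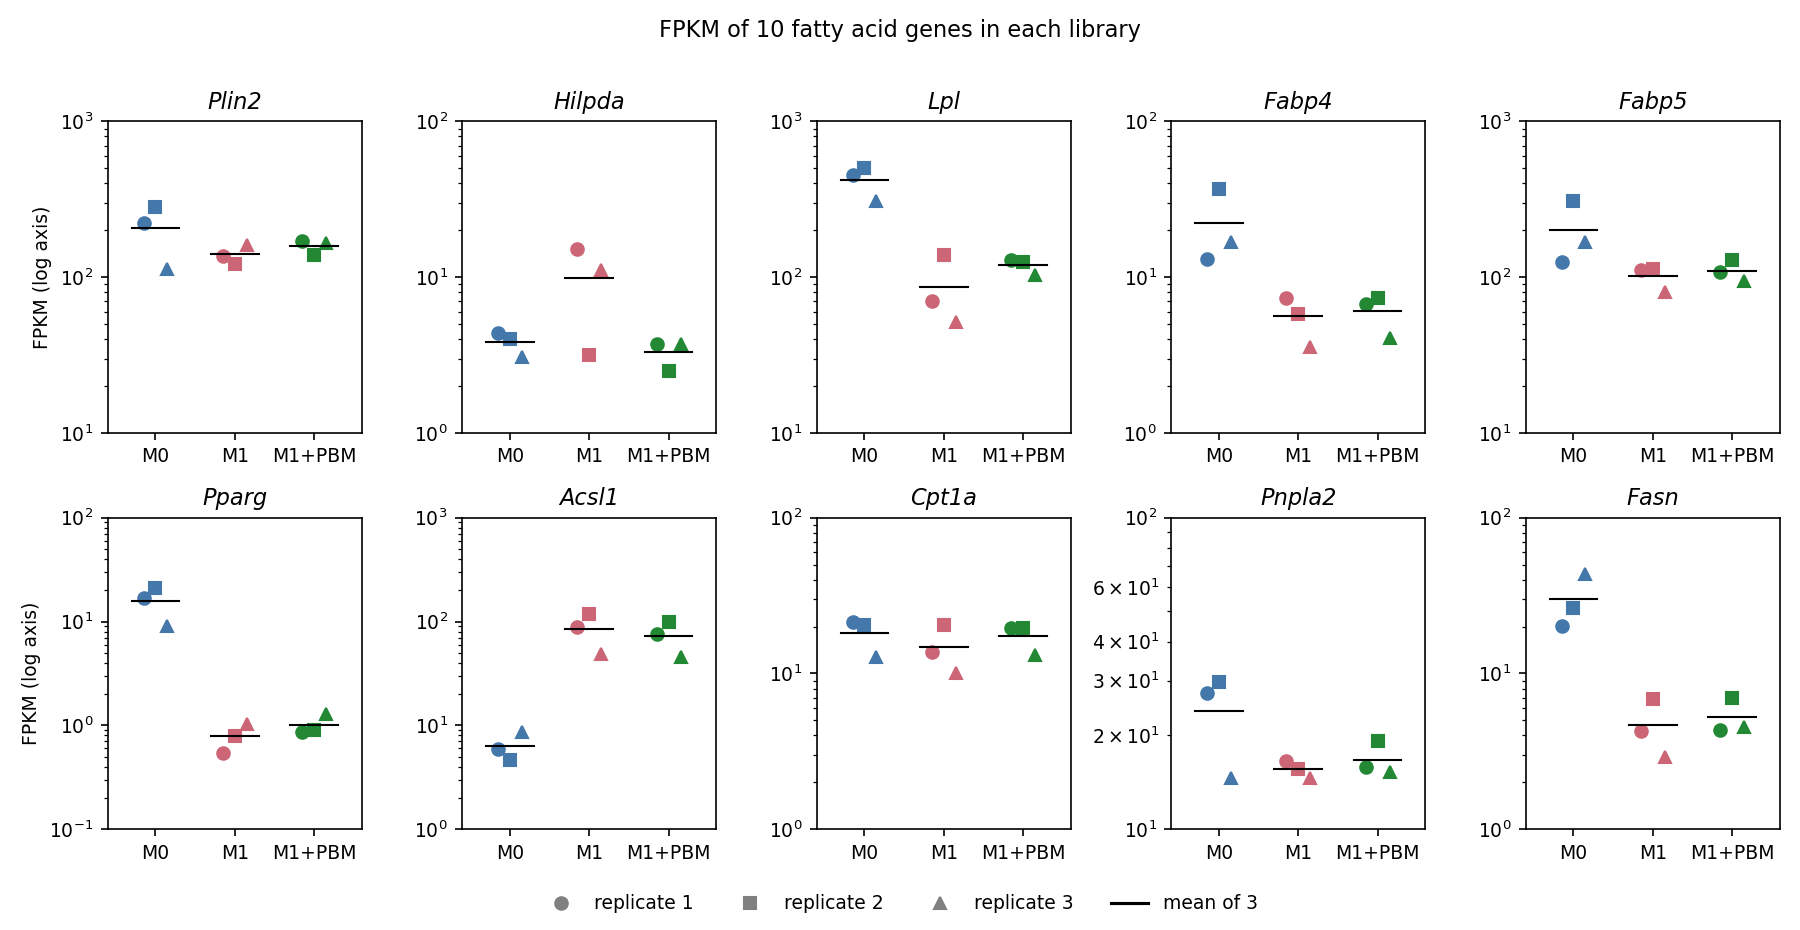
FPKM of the 10 genes (vertical log axis, a range of its own in each panel) in the M0, M1 and M1 + PBM libraries. Each symbol is a library, its shape the replicate number, and the bar the mean of 3; Pparg lies at 9.12 or above in M0 and at 1.28 or below elsewhere, while Acsl1 lies at 8.57 or below in M0 and at 45.3 or above elsewhere.

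Lpl, the lipase that frees fatty acids from lipoproteins, had the highest mean level of the 10 in M0. Its FPKM was 449, 502 and 308 in M0 replicates 1 to 3, then 70.1, 139 and 51.4 in M1, and 129, 126 and 103 in M1 + PBM. All 6 stimulated libraries lay below all 3 M0 libraries, and M1 replicate 2 was the highest of the stimulated ones. The mean was 4.84-fold lower in M1 than in M0, a log2 difference of -2.36, or -2.02 relative to all rows. Cd36, the fatty acid translocase, was chosen for mention once its values were known, because it stood in the same order. It was at 342, 465 and 117 in M0, 66.2, 135 and 53.3 in M1, and 119, 128 and 91.4 in M1 + PBM, so that M0 replicate 3 overlapped with the stimulated libraries.

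The binding proteins Fabp4 and Fabp5 carry fatty acids within the cell. Fabp4 was at 13.1, 36.6 and 16.7 in M0, 7.40, 5.83 and 3.56 in M1, and 6.69, 7.31 and 4.09 in M1 + PBM. Its mean was 3.96-fold lower in M1 than in M0 (log2 difference -1.72, or -1.38 relative to all rows), with no overlap. Fabp5 was far more abundant, at 125, 310.4 and 168 in M0, 111, 113 and 79.8 in M1, and 107, 128 and 94.5 in M1 + PBM. Its M1 libraries all lay below its M0 libraries, by a log2 difference of -0.89, or -0.56 relative to all rows. After median-of-ratios scaling the difference was -0.39 and the ranges overlapped, whereas with quantile normalization the difference was -1.21. M1 + PBM replicate 2 reached above M0 replicate 1. Fabp5 may share reads with a copy, since the pseudogene Gm6166 is 98.3% identical to it over 409 bases and was listed at 13.7 to 47.4 FPKM. Reads were not examined, so the level of Fabp5 is uncertain to that extent. No other of the 10 genes had an annotated copy of at least 95% identity over 200 bases that reached 1 FPKM.

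Fabp3, the heart-type binding protein and the uptake gene with the largest difference between M0 and M1, went the other way. It was at 2.80, 4.33 and 5.78 in M0, 149, 114 and 56.3 in M1, and 72.1, 105 and 33.0 in M1 + PBM. Its mean was 24.8-fold higher in M1 than in M0, with no overlap. Of the summed FPKM of Fabp3, Fabp4 and Fabp5, Fabp3 made up 1.23% to 3.04% in M0, 40.3% to 55.6% in M1 and 25.1% to 43.5% in M1 + PBM. Fabp5 made up 88.2% to 88.7% in M0, 41.6% to 57.1% in M1 and 53.4% to 71.8% in M1 + PBM, so that the binding protein messages of resting cells were nearly all Fabp5 and those of stimulated cells were a mixture.

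Acsl1, the acyl-CoA synthetase that traps fatty acids by activating them, was the gene of the 10 that stood higher in every M1 library than in every M0 library. It was at 5.89, 4.59 and 8.57 in M0, 89.3, 118 and 48.4 in M1, and 76.5, 98.1 and 45.3 in M1 + PBM. The mean was 13.4-fold higher in M1 than in M0, a log2 difference of 3.50, or 3.83 relative to all rows, and no library overlapped. Of the summed FPKM of Acsl1, Acsl3, Acsl4 and Acsl5, Acsl1 made up 9.49% to 13.7% in M0, 34.8% to 54.1% in M1 and 32.1% to 47.9% in M1 + PBM. Acsl3, a synthetase tied to droplet growth, had the largest difference of mean log2(FPKM + 1) among the activation genes of the wider list, at -1.54, and its mean was 4.49-fold lower in M1 than in M0, at 4.24, 5.58 and 6.23 in M0 against 1.09, 1.64 and 0.842 in M1. Relative to all rows its difference was -1.20, and that of Acsl5, another synthetase of the family, was larger, at 1.77.

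**Figure D2:**
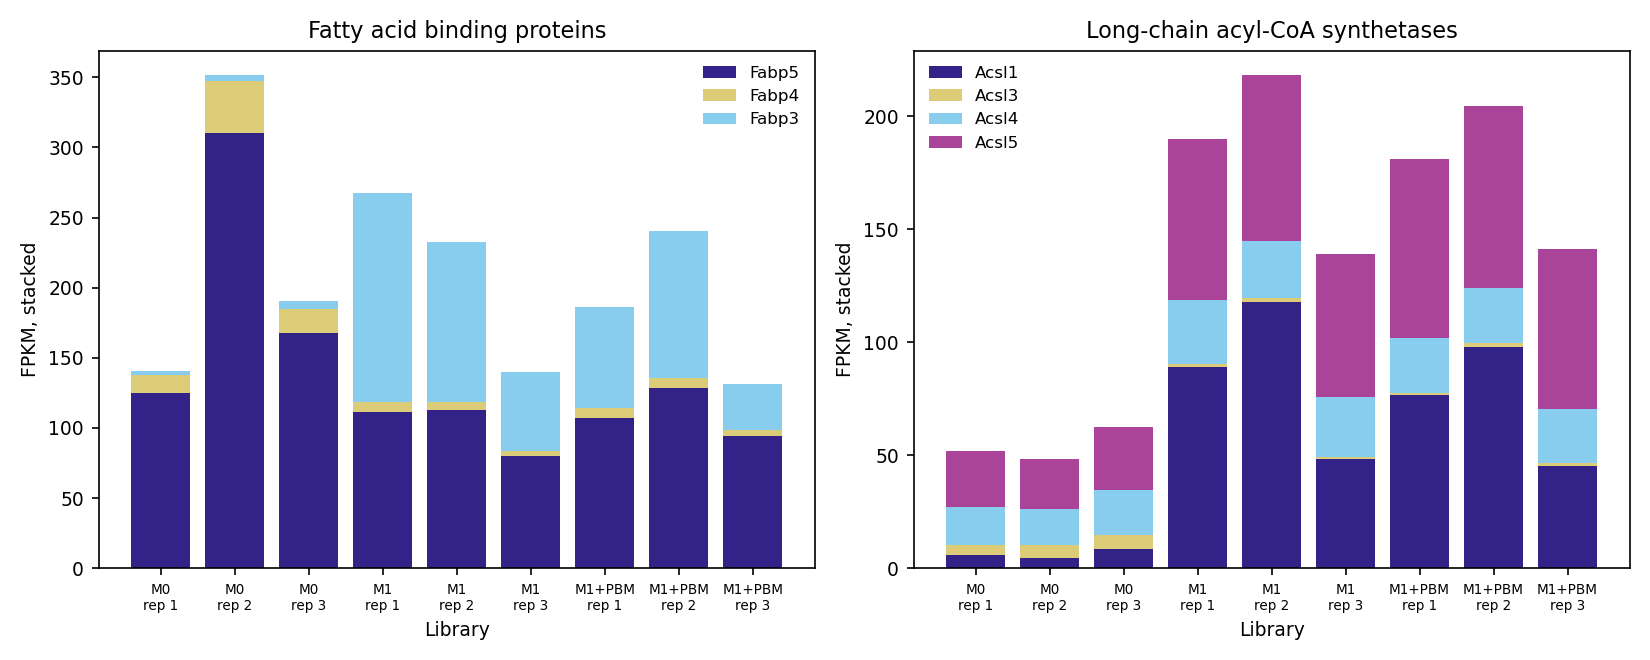
FPKM (vertical axis, stacked from 0) of 3 fatty acid binding protein genes and 4 long-chain acyl-CoA synthetase genes in each of the 9 libraries. Fabp3 makes up 1.23% to 3.04% of its stack in M0 and 25.1% to 55.6% in the stimulated libraries, and Acsl1 makes up 9.49% to 13.7% and 32.1% to 54.1%.

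Plin2, which coats lipid droplets, had the highest mean of the 10 in both stimulated groups. It was at 224, 281 and 113 in M0, 137, 121 and 162 in M1, and 169.7, 139 and 167 in M1 + PBM. M0 replicate 3 was the lowest of all 9, and the ranges overlapped. This library had the high stromal sum and also the highest M1 marker sum of M0, at 29.1. The log2 difference of M1 from M0 was -0.47, or -0.13 relative to all rows. It turned to 0.03 with median-of-ratios scaling and to -0.76 with quantile normalization. Plin2 made up 82.5% to 92.4% of the summed FPKM of Plin2, Plin3, Plin4 and Plin5 in every library.

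Hilpda encodes a small droplet protein that inhibits the triglyceride lipase ATGL and is a known target of hypoxia-inducible factors. It was at 4.38, 4.01 and 3.09 in M0, 15.2, 3.16 and 11.2 in M1, and 3.74, 2.49 and 3.73 in M1 + PBM. M1 replicates 1 and 3 stood above every other library, while M1 replicate 2, which carried the liver markers, lay within the M0 and M1 + PBM ranges. The log2 difference of M1 from M0 was 0.97, or 1.31 relative to all rows, with overlap, and after median-of-ratios scaling the M1 libraries no longer overlapped with M0. Pnpla2, which encodes ATGL itself, was at 27.3, 29.8 and 14.6 in M0, 16.6, 15.6 and 14.6 in M1, and 15.8, 19.1 and 15.2 in M1 + PBM. M0 replicate 3 lay at the lower end of the stimulated libraries, far below the other M0 libraries. Its log2 difference of M1 from M0 was -0.53, or -0.19 relative to all rows. It was -0.05 after median-of-ratios scaling and -0.51 after quantile normalization.

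Fasn, the fatty acid synthase, was at 20.2, 26.4 and 43.6 in M0, 4.26, 6.87 and 2.90 in M1, and 4.34, 6.93 and 4.54 in M1 + PBM. Its mean was 6.43-fold lower in M1 than in M0 (log2 difference -2.44, or -2.11 relative to all rows), without overlap, and M0 replicate 3 was the highest. Cpt1a, the carnitine palmitoyltransferase that admits fatty acids to mitochondria, was at 21.4, 20.4 and 12.8 in M0, 13.7, 20.3 and 10.1 in M1, and 19.7, 19.6 and 13.2 in M1 + PBM. Replicate 3 was the lowest of each group, and all ranges overlapped. The log2 difference of M1 from M0 was -0.31, or 0.03 relative to all rows. It turned to 0.16 with median-of-ratios scaling and was -0.23 with quantile normalization.

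Pparg, the nuclear receptor that drives genes of fatty acid uptake and storage, was the gene of the 10 with the largest deficit in M1. It was at 16.9, 21.2 and 9.12 in M0, 0.537, 0.791 and 1.03 in M1, and 0.863, 0.907 and 1.28 in M1 + PBM. The mean was 20.02-fold lower in M1 than in M0, a log2 difference of -3.16, or -2.83 relative to all rows, and 15.5-fold lower in M1 + PBM than in M0. Without M0 replicate 3 the log2 difference of M1 from M0 was -3.49. Of the adipocyte markers, Adipoq was at 1.32 in M0 replicate 3, the M0 library with the lowest Pparg, and listed at 0 in the other M0 libraries. The M1 marker sum of M0 replicate 3 was 29.1, against 1.04 and 1.21 in the other M0 libraries. Upper estimates from the longest transcript put 45.3 to 1530.1 fragments behind Pparg in a library and 102.6 to 593.1 behind Hilpda.

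M1 + PBM was set beside M0 as well. Lpl, Fabp4, Fasn and Pparg were lower in every M1 + PBM library than in every M0 library, Acsl1 was higher, and 5 genes overlapped, where 62.2% of all rows did not overlap, 46.2% lower and 15.9% higher. The median difference of all rows was -0.27 here. The log2 differences of M1 + PBM from M0, before this shift is taken off, were -1.78 for Lpl, -1.62 for Fabp4, -2.26 for Fasn, -2.99 for Pparg and 3.31 for Acsl1. Hilpda differed by -0.16, or 0.10 relative to all rows. The M0 libraries are shared between both descriptions.

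The order of the mean levels also differed between groups. In M0, Lpl had the highest mean and stood apart from Plin2, while Fabp5 replicate 2 reached into its range, Plin2 and Fabp5 overlapped with each other, and Acsl1 and Hilpda stood last. In M1, Plin2 was first by its mean and apart from Fabp5, while Lpl replicate 2 reached into its range, Fabp5, Lpl and Acsl1 followed with overlapping ranges, Pnpla2, Cpt1a, Hilpda, Fabp4 and Fasn each overlapped with the next, and Pparg stood apart at the end. In M1 + PBM the first 4 were Plin2, Lpl, Fabp5 and Acsl1, of which Plin2 stood apart from Lpl and Acsl1 from the next gene, Cpt1a, and Hilpda had moved to the ninth place, apart from Fasn above and Pparg below.

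A wider list of 75 genes of the same pathways, chosen by function, placed the 10 in context. In M1 against M0, 37 of the 61 expressed genes were lower without overlap, 8 were higher and 16 overlapped, with a median log2 difference of -0.65. These are 60.7% lower and 13.1% higher, where 50.6% and 15.6% of all rows were. After median-of-ratios scaling 26 were lower and 16 higher, or 42.6% and 26.2%, where 25.3% and 31.6% of all rows were. After quantile normalization 33 were lower and 10 higher, or 54.1% and 16.4%, where 31.1% and 25.0% of all rows were. Of 19 oxidation genes 15 were lower and 0 higher, which became 10 lower and 3 higher after median-of-ratios scaling. Quantile normalization gave 12 lower and 1 higher. Of 12 synthesis and desaturation genes 9 were lower and 0 higher, which became 7 lower and 2 higher after median-of-ratios scaling and stayed the same after quantile normalization. Of 4 activation genes 3 were higher and 1 lower under each scaling. The counts were 3 lower and 1 higher of 7 for uptake and carriage, 7 lower and 1 higher of 11 for droplets and triglyceride synthesis, 2 lower and 1 higher of 3 for lipolysis, and 0 lower and 2 higher of 5 for regulators. After median-of-ratios scaling these became 3 lower and 1 higher for uptake and carriage, 4 lower and 3 higher for droplets and triglyceride synthesis, 1 lower and 1 higher for lipolysis, and 0 lower and 3 higher for regulators. Quantile normalization gave 5 lower and 1 higher for uptake and carriage, and 5 lower and 2 higher for droplets and triglyceride synthesis. For lipolysis it gave 1 lower and 1 higher, and for regulators 0 lower and 2 higher.

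In each role the gene with the largest difference of mean log2(FPKM + 1) between M0 and M1, not taken relative to all rows, is named. Lpin1, a phosphatidate phosphatase of triglyceride synthesis, was at 4.02, 6.10 and 2.86 in M0 and at 0.258, 0.353 and 0.113 in M1, a 17.9-fold lower mean. Mgll, the monoglyceride lipase, was at 5.79, 43.6 and 12.3 in M0 and at 3.03, 5.12 and 0.758 in M1, a 6.92-fold lower mean. Relative to all rows the difference of Lpin1 was -1.72, and that of Dgat2, the acyltransferase of the final step, was larger, at 1.92. Fads2, a desaturase, was 12.4-fold lower in M1, and the fold of the elongase Elovl6 was larger, with a mean of 2.11 in M0 and 0.07 in M1. Hadh, the mitochondrial hydroxyacyl-CoA dehydrogenase, was at 5.63, 5.68 and 5.65 in M0 and at 1.08, 1.69 and 0.665 in M1, a 4.92-fold lower mean. Nr1h3, which encodes the liver X receptor α, was higher, at 13.4, 27.8 and 19.9 in M0 and at 53.9, 67.5 and 58.7 in M1, a 2.94-fold higher mean. The Hadh and Lpin1 libraries of the groups lay well apart, whereas Mgll varied widely within each group and overlapped after median-of-ratios scaling.

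**Figure D3:**
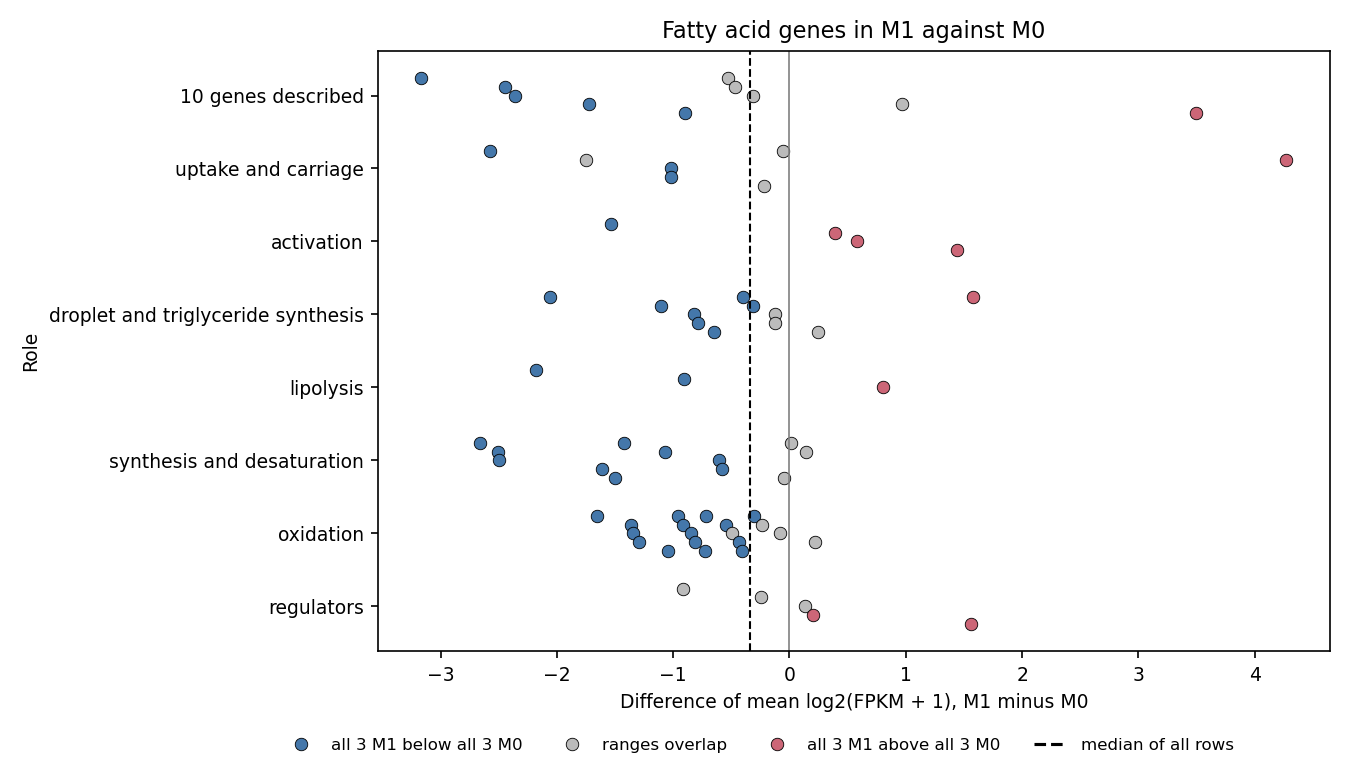
Difference of mean log2(FPKM + 1), M1 minus M0 (horizontal axis), for the 10 genes and for the 61 expressed genes of the wider list by role (vertical axis); each point is a gene, its colour shows whether the 3 M1 and 3 M0 libraries overlap, and the dashed line is the median of all rows at -0.34. Of the oxidation genes 15 of 19 lie lower without overlap (10 after median-of-ratios scaling, 12 after quantile normalization). Acsl1 at 3.50 and Fabp3 at 4.27 lie far to the right.

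The second comparison, M1 + PBM against M1, addressed how these genes stood in stimulated macrophages with and without light. It shares the M1 libraries with the comparison above. Hilpda had the largest difference of the 10 and was lower with PBM, while Lpl had the largest difference upwards. None of the 9 genes tested passed both thresholds of the study (unadjusted p no higher than 0.05, log2 fold change of 1 or more in size) in limma's test without a replicate block, and all 10 overlapped between the groups. Of all 12238 rows tested, 0.261% passed these thresholds, and 0.237% did so with a lower level under PBM. At an unadjusted p of at most 0.05 alone the count was 0 of 9, where 4.44% of all rows passed. Pparg was not tested, because its FPKM reached 1 in too few of these libraries. After Benjamini-Hochberg adjustment 0 of the 9 and 0.00817% of all rows passed. The median log2 fold change was 0.13 over the 9 genes and 0.06 over all rows. The median over the 9 genes rested on single libraries, since leaving out M1 replicate 3 turned it to -0.04, and leaving out M1 + PBM replicate 2 to -0.0010.

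Hilpda was at 15.2, 3.16 and 11.2 in M1 and at 3.74, 2.49 and 3.73 in M1 + PBM (9.86 ± 6.15 against 3.32 ± 0.72, SD, n = 3). Each M1 + PBM library lay below the M1 library of the same replicate number, by -1.78, -0.25 and -1.36 on the log2 scale, and the ranges overlapped through M1 replicate 2. The log2 fold change was -1.13 (SE 0.49, 95% interval -2.31 to 0.05), with limma's p = 0.0573, an adjusted p of 0.90 and an exact permutation p of 0.3, where the smallest that 3 against 3 libraries can give is 0.1. The labels do not say that equal replicate numbers were paired, and the pairing was read from correlations in these same libraries. With the replicate number as a block, the interval was -1.93 to -0.33. Hilpda then passed the thresholds (limma's adjusted p = 0.58), as did 0.368% of all rows. Without M1 replicate 2 its log2 fold change was -1.72 and passed the thresholds (limma's adjusted p = 0.29), as did 0.564% of all rows, and without any of the other 5 libraries it lay between -1.21 and -0.74 and did not pass. Beside it, M1 replicate 2 had Nos2 at 112 where M1 replicates 1 and 3 had 290.0 and 284, and albumin at 9.01 where they were listed at 0, and the part of these differences in the Hilpda result was not tested.

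Lpl was at 70.1, 139 and 51.4 in M1 and at 129, 126 and 103 in M1 + PBM (86.8 ± 46.1 against 119 ± 14.5, SD, n = 3). Replicates 1 and 3 were higher with PBM, by 0.87 and 0.99 on the log2 scale, and replicate 2 differed by -0.14. The log2 fold change was 0.57 (SE 0.35, 95% interval -0.27 to 1.42), with limma's p = 0.149 an exact permutation p of 0.4, and with the block limma's p of 0.0672. Without M1 replicate 2 it was 0.97, past the threshold on the unadjusted p (limma's adjusted p = 0.53) and short of the log2 fold change of 1. The same library thus held the lowest M1 value of Hilpda and the highest of Lpl.

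The other genes differed by less between M1 + PBM and M1. Their log2 fold changes were 0.27 (95% interval -0.38 to 0.92) for Cpt1a, 0.18 (-0.17 to 0.54) for Plin2, 0.18 (-0.50 to 0.86) for Fasn, 0.13 (-0.31 to 0.57) for Fabp5, 0.11 (-0.56 to 0.77) for Fabp4, 0.09 (-0.19 to 0.37) for Pnpla2 and -0.19 (-1.15 to 0.77) for Acsl1. These intervals lay within 1 log2 unit of 0 on either side, except that of Acsl1, which reached below -1. Plin2 was higher with PBM in all 3 pairs, by 0.31, 0.20 and 0.04, and Acsl1 lower in all 3, by -0.22, -0.26 and -0.09. Acsl1 varied mainly between replicate numbers, and with the block its interval narrowed to -0.40 to 0.01. Pparg was at 0.537, 0.791 and 1.03 in M1 and 0.863, 0.907 and 1.28 in M1 + PBM, with an exact permutation p of 0.4 over these 6 libraries.

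**Figure D4:**
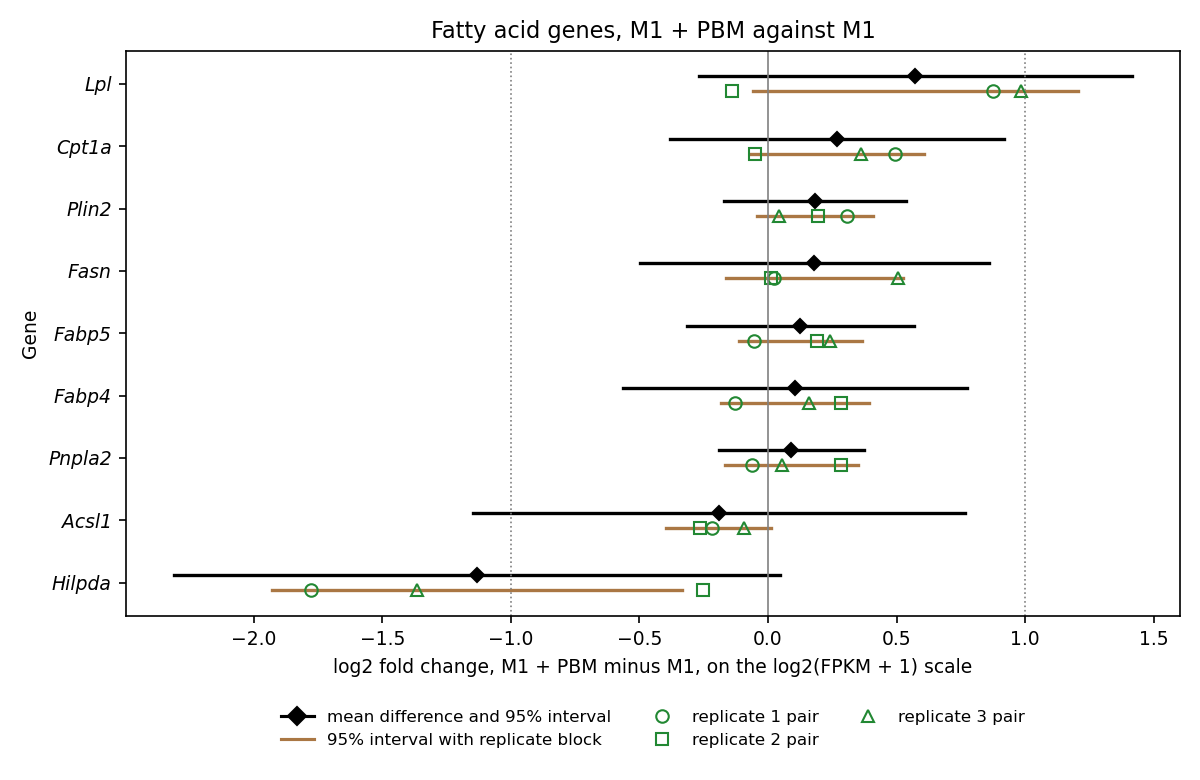
Log2 fold change of M1 + PBM against M1 (horizontal axis, log2(FPKM + 1) scale) for the 9 genes tested (vertical axis); diamonds and black bars give the mean difference and its 95% interval, brown bars the interval with the replicate block, open symbols the 3 pairs of equal replicate number, and dotted lines a log2 fold change of 1 in size. Every black bar crosses 0, and the brown bar of Hilpda, from -1.93 to -0.33, does not.

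Of the wider list 58 genes were tested between M1 + PBM and M1, and 3 stood at an unadjusted p of at most 0.05, 2 higher and 1 lower, where 2.99% of all rows were higher and 1.45% lower at that threshold. Without overlap 5 of the 58 were higher and 3 lower, where 8.51% and 2.52% of all rows were. None of the 3 passed the log2 fold change of 1 or the adjustment, with adjusted p = 0.90 for all 3 in limma's test. Dgat2, which makes the final step of triglyceride synthesis, was at 3.40, 1.56 and 2.56 in M1 and at 1.14, 1.24 and 0.972 in M1 + PBM, and the groups did not overlap. Its log2 fold change was -0.70 (SE 0.20), with limma's p = 0.0117 and an exact permutation p of 0.1. In M0 it had been at 0.0932, 0.00954 and 0.357, so that it stood higher in M1 and lower again with PBM. Nr1h3 was at 53.9, 67.5 and 58.7 in M1 and at 87.6, 85.2 and 68.3 in M1 + PBM, with a log2 fold change of 0.41 (SE 0.14), limma's p = 0.0252 and an exact permutation p of 0.1. For Nr1h3 limma's p was above 0.05 with median-of-ratios scaling and with the loss of any of M1 replicates 1 and 3 and M1 + PBM replicates 1 and 2. Acadm, the medium-chain acyl-CoA dehydrogenase of fatty acid oxidation, was at 9.60, 9.31 and 7.87 in M0, 2.88, 3.25 and 2.45 in M1, and 3.49, 3.67 and 4.36 in M1 + PBM. Its log2 fold change with PBM was 0.33 (SE 0.12), with limma's p = 0.0330, an exact permutation p of 0.1 and, with the block, limma's p of 0.0557. For Acadm it was also above 0.05 with the loss of any of M1 replicates 1 and 3 and M1 + PBM replicates 2 and 3, whereas Dgat2 stayed at or below 0.05 with the block and without any single library.

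With the replicate block, 6 of the 58 genes stood at a p of at most 0.05 in limma's test, where 8.07% of all rows did. Dgat2, Fabp3 and Ppard, a relative of PPARγ, were lower, with log2 fold changes of -0.70, -0.64 and -0.27. Nr1h3, Scd2, a stearoyl-CoA desaturase, and Rxra, the partner receptor of PPARs and liver X receptors, were higher, with 0.41, 0.32 and 0.59. Fabp3 was lower with PBM in each pair, at 72.1, 105 and 33.0 against 149, 114 and 56.3, with limma's adjusted p = 0.58 in this fit. Without the block its interval was -1.86 to 0.58, and it was not among the genes at the unadjusted p.

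Group means that were slightly higher with PBM were common among oxidation genes. Of the 58 genes 46 had a higher mean with PBM than in M1 and 12 a lower one, with a median log2 fold change of 0.14, where 65.6% of all rows had a higher mean. Among the 19 tested genes of oxidation 18 were higher (median 0.16), and 3 of them did not overlap between the groups. With median-of-ratios scaling, which put 48.6% of all rows higher, 17 of the 19 were higher and their median was 0.10. Leaving out single libraries gave 16 to 18 of 19, with a median of 0.07 without M1 replicate 3 and 0.27 without M1 replicate 2. The pairs did not all go this way. In the replicate 2 pair several oxidation genes, among them Cpt2, Acads, Decr1 and Crat, were lower with PBM, and others, among them Acadm and Etfb, were higher. All were read in the same libraries, so these counts are not of separate observations. Each single difference was small, and only Acadm stood at an unadjusted p of at most 0.05 in limma's test. Without M1 replicate 2, however, 13 genes of the wider list did, where 8.90% of all rows did, and these were Acadm, Decr1, Echs1, Eci1, Hadh and Hadhb of oxidation, with log2 fold changes of 0.28 to 0.57, together with Cd36, Lipa, Nr1h3, Ppargc1b and Rxra, which were higher, and Dgat2 and Ppard, which were lower. Cd36 then had a log2 fold change of 0.90. Leaving out M1 replicate 1 or M1 replicate 3 instead gave 1 gene of the wider list at that p, and leaving out any M1 + PBM library gave 2.

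The genes most like each of the 10 over the 9 libraries were sought among all expressed rows, as a description. Pearson's r of log2(FPKM + 1) was highest with Ppard for Hilpda (0.901), with Rgs10 for Lpl (0.995), with Ier5l for Pparg (0.998), with Fkbp3 for Fasn (0.996), with Gm45244 for Acsl1 (0.998), with Zfp994 for Pnpla2 (0.993), with Gm10933 for Plin2 (0.985), with Gm1673 for Fabp4 (0.969) and with Gm45094 for Cpt1a (0.951). For Fabp5 it was its own copy Gm6166 (0.981). The 9 libraries share their groups and their depth, and each r was the highest of 13914 candidates, so that high values are common for any gene that separates M0 from the rest.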

How the data were processed

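RNA was measured in 3 libraries each of M0, M1 and M1 + PBM macrophages, grouped by their labels. The authors deposited FPKM values in 2 tables, 1 with the M0 libraries and 1 with the other 6, each of 55655 rows. Expression values came from Cufflinks methods according to the study, and the submitters' processing notes list Bowtie 0.12.2 and mm9. Of the rows, 320 carry assembler names of the form MSTRG, and 55154 were paired with a symbol of GENCODE release M21. Reads had not been counted whole (32.6% to 35.3% of low values lay within 0.05 of a whole number of steps, where 10% would by even spread), so no count test was run, and the depth is an estimate.

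The fit for M1 + PBM against M1 was made on log2(FPKM + 1) in R 4.3.3 with limma 3.58.1 (lmFit, eBayes with a trend), over the 12238 rows that reached 1 FPKM in 3 or more of the 6 libraries. Fold changes are on this scale, which understates those of low genes. Calls followed the thresholds of the study (unadjusted p no higher than 0.05, log2 fold change of 1 or more in size), with Benjamini-Hochberg adjustment over all rows beside them. The test, scale and filter were chosen here and need not be those of the study. With them 32 rows passed, 29 of them lower with PBM, where the study reported far more genes, most of them upregulated. Two-sided exact permutation tests used SciPy 1.17.1. M0, from the other table, entered no test, and whether it was normalized together with the other libraries is not given in the sources used here.

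The replicate numbers were checked as pairs. Deviations from the group means correlated between same-numbered M1 and M1 + PBM libraries (r of 0.157, 0.469 and 0.462). Between different numbers r lay between -0.491 and 0.0328, so a fit with the number as a block was made beside the main one. Deviations within a group cancel, so r between different numbers falls where same-number r rises, and the contrast is partly built in. No libraries held identical values. On simulated data for M1 + PBM against M1 with 200 of the 12238 rows changed, the thresholds recovered 98% of the changed rows and called 41 unchanged ones.

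All 10 genes were named, and from a wider list of 75 genes every one at an unadjusted p of at most 0.05 and, in each role, the one with the largest difference of mean log2(FPKM + 1) between M0 and M1. The genes and lists were chosen with earlier results of these data known. Genes named for other reasons are Cd36 and those listed for the block or for a library left out. Marker lists covered macrophages, M1 cells, adipocytes, neutrophils, dendritic, lymphoid, erythroid, stromal and liver cells. Copies were sought with BLAST+ 2.17.0 in GENCODE M21 transcripts, and promoter windows came from RefSeq on GRCm38.p6, which is not the build of the processing notes, so no coordinates of the measured rows are given. Alternatives covered the replicate block, each library left out in turn, quantile normalization, scaling by the median of ratios, a pseudocount of 0.1, a filter on a mean FPKM of 5, no filter, and eBayes with no trend. Counts of genes with a higher mean under PBM were added after the data were seen.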

Additional observations from a re-analysis of the deposited data

How the results depend on the processing

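With the replicate block, whose pairing was read from these same libraries, 1 of the 10 genes (Hilpda) passed the study's thresholds in limma's test. In that fit 1 stood at an unadjusted p of at most 0.05 for M1 + PBM against M1, and 6 genes of the wider list stood at that p. The block changed no other call among the 10 genes. Leaving out single libraries gave 0 to 1 of the 10 genes past the thresholds and 0 to 2 at the unadjusted p, the higher counts without M1 replicate 2, against 0 in each case with all libraries. For the wider list it gave 1 to 13 genes, with 13 without M1 replicate 2 and 1 without M1 replicate 1 or 3, against 3 with all libraries, and a mean FPKM of at least 5 gave 1, since that filter leaves fewer genes. The count of all rows past the thresholds was 32, became 75 with a pseudocount of 0.1, and ranged from 27 to 89 when single libraries were left out, with 69 when M1 replicate 2 and 89 when M1 + PBM replicate 2 was left out. With a mean FPKM of at least 5, fewer genes were tested. Then 24 of 31 genes of the wider list and 8 of 9 oxidation genes had a higher mean with PBM, where 61.7% of all rows did.

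Leaving out single libraries turned the direction of small differences between M1 + PBM and M1, which then ranged from -0.14 to 0.32 for Fabp4, -0.036 to 0.23 for Fabp5, -0.55 to 0.11 for Acsl1, -0.0045 to 0.15 for Pnpla2 and -0.061 to 0.45 for Fasn on the log2 scale. Hilpda kept its sign, between -1.72 and -0.74. The genes without overlap between M1 and M0 numbered 6 to 9 when single libraries were left out, with 9 without M0 replicate 3, and 6 under each scaling tried. Leaving out a library can only keep or raise such a count, for all rows as for these genes. The shares of all rows with a library left out are not given, so the rise is not a result about these genes. With 3 libraries a group, no exact permutation p can go below 0.1, and the causes of these changes were not tested.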
